A study of Mus musculus with 34 samples.

Results

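The 10 genes described here encode the core machinery that stores and releases fat in adipocytes: the β3-adrenergic receptor (Adrb3), the lipases Pnpla2, Lipe and Mgll, the co-activator Abhd5, the inhibitor G0s2, and the lipid droplet proteins Plin1, Plin2, Plin4 and Cidec. They were picked by gene symbol, with earlier results of these data known. All 10 had a row among the 15145 genes of the adipose count table, and 9 had a row among the 13238 genes of the heart count table, out of 15777 genes present in either. All of these passed the filter on low counts. Adrb3 in heart was not analysed here.

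Lipolysis is the stepwise removal of fatty acids from stored triglyceride at the surface of the lipid droplet. In white adipocytes, catecholamines act through β-adrenergic receptors, cAMP and protein kinase A, which phosphorylates perilipin 1 (Plin1) and hormone-sensitive lipase (Lipe). Phosphorylated perilipin 1 releases Abhd5, which then activates adipose triglyceride lipase (Pnpla2), while insulin and other antilipolytic signals lower cAMP. Heart muscle takes up fatty acids as its main fuel and keeps small droplets that are turned over by the same lipases.

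The libraries came from bulk adipose tissue and heart of C57BL/6J mice aged 20 to 22 months. The design divided 18 mice into 3 diet groups: a control diet with 10% of calories from fat, a high-fat, high-calorie diet (HFCD) with 60% from fat, and HFCD interrupted every 4 weeks by 5 days of a fasting mimicking diet (HFCD+FMD). From cycle 6, 2 days on control diet came between each FMD and the return to HFCD. Tissue was collected after 11 cycles, 4 days after the last FMD ended, so HFCD+FMD libraries show the refed state. The labels do not give the fat depot or the sex of the mice. Adipose libraries numbered 3 for control (replicates 1, 3 and 5), 4 for HFCD (1 to 4) and 6 for HFCD+FMD (1 to 6). Heart libraries numbered 5 for control (replicates 2 to 6), 5 for HFCD (1 to 5) and 4 for HFCD+FMD (1, 2, 3 and 5). The replicate numbers only name libraries.

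Adipose libraries held 15604982 to 40831656 counts and heart libraries 16848195 to 47859170. Values are CPM, a gene's counts scaled to a common library total after TMM scaling, which centres the differences between diets on the bulk of the genes. With plain library totals and no TMM scaling, an alternative chosen after seeing the data, the median log2 fold change of all adipose genes was 0.44 in HFCD and 0.47 in HFCD+FMD against control, and 0.03 between the other two. In heart it was -0.39, -0.12 and 0.27. All changes below are therefore relative to the bulk of the genes, and values on library totals are given where a call, a direction or a size depends on the scaling. Mitochondrially encoded genes took 12.6 to 29.3% of adipose counts in control, 2.17 to 6.08% in HFCD and 2.20 to 7.47% in HFCD+FMD. In heart they took 21.8 to 32.6%, 36.4 to 71.5% and 29.5 to 62.0%. TMM scaling computed without these genes gave 4 of the 10 genes called under HFCD in adipose tissue, as with them. All 8 adipocyte markers were present in adipose tissue, with a summed level of 23979 to 36676 CPM in control, 21610 to 24393 in HFCD and 14749 to 33973 in HFCD+FMD. Under HFCD 5 of the 8 fell (Cfd, Pparg, Retn, Slc2a4 and Thrsp), 1 rose (Lep) and the median log2 fold change was -0.75, against 2 falls and -0.26 on library totals. All 8 macrophage markers were present as well and rose under HFCD, from 227 to 1109 CPM in control libraries to 2850 to 5125 in HFCD, with 887 to 4330 in HFCD+FMD. Of 6 mesothelial markers, 5 fell under HFCD (median log2 fold change -2.10, with 1 fall on library totals), from 186 to 418 CPM in control to 22.2 to 117 in HFCD. Control replicate 1 stood apart in markers of brown and beige fat: its Ucp1 level was 130.3 CPM, against 0.0709 to 8.95 in the other 12 adipose libraries. HFCD+FMD replicate 4 had the lowest summed adipocyte level. In bulk tissue, fewer cells of a type and less RNA per cell cannot be told apart, and the part that shifts in cell makeup or in the mitochondrial share had in the differences below was not tested. No label says which animal a library came from, so p-values measure the spread between libraries.

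RefSeq promoter windows on GRCm38.p6, from 250 bases before to 50 after a transcription start, matched 9 of the 10 genes. The 4 printed here belong to the 3 of these genes that fell under HFCD and to Plin2, whose HFCD libraries all lay above control. The windows are Pnpla2 at chr7:141454938-141455237 on the plus strand, Plin1 at chr7:79732727-79733026 on the minus strand, Abhd5 at chr9:122351366-122351665 on the plus strand and Plin2 at chr4:86670010-86670309 on the minus strand. Each is written 5′ to 3′ along the gene, and capitals mark a match on either strand to any of 7 motifs: the nuclear receptor element AGGTCA, the E-box CACGTG, the GC box GGGCGG, the TATA box TATAAA, the CCAAT box, the forkhead site TGTTTAC and the cAMP response element TGACGTCA.
Pnpla2: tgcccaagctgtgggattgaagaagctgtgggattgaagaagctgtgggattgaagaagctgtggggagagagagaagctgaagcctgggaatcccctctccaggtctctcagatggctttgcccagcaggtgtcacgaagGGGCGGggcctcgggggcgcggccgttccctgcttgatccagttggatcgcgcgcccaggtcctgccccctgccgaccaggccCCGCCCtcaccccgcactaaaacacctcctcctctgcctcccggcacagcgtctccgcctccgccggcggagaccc
Plin1: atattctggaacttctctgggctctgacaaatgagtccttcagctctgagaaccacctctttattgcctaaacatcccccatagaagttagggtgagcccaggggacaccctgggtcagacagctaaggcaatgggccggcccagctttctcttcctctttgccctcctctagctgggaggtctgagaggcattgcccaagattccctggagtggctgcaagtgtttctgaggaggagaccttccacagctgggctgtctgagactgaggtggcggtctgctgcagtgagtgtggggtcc
Abhd5: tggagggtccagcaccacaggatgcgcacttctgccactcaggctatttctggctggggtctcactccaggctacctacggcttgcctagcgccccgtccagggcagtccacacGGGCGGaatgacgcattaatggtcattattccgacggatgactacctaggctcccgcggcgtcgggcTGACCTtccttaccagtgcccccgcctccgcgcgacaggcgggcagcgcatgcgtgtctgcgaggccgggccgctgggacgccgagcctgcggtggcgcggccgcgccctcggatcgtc
Plin2: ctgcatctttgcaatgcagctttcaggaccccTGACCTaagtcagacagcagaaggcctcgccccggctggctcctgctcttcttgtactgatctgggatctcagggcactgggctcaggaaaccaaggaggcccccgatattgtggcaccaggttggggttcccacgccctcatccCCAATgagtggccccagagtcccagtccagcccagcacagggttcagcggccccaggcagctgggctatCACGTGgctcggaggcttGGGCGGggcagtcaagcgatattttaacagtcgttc

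The GC box GGGCGG occurred in the windows of Pnpla2, Abhd5 and Plin2, and in 35.7% of the 32851 windows of all genes. It also occurred in windows of G0s2, Lipe and Mgll, which are not printed. The nuclear receptor element AGGTCA occurred in those of Abhd5 and Plin2 and in 16.3% of all windows. The E-box CACGTG occurred in windows of Plin2, Lipe and Mgll and in 7.15% of all windows. The CCAAT box occurred in those of Plin2 and Plin4 and in 37.4% of all windows. The Plin1 window held none of the 7 motifs. The cAMP response element TGACGTCA (1.79% of all windows) and the TATA box TATAAA (13.6%) occurred in no window of these genes, and the forkhead site TGTTTAC (3.65%) in a window of Lipe and of Mgll. A match is a description of letters, not a measured binding site.

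Per kilobase of exon, the level of these genes on the control diet in adipose tissue was highest for Cidec, the protein that joins droplets into the single large droplet of white fat, at 1916 ± 145 CPM per kb (SD, n = 3). Pnpla2 followed at 1083 ± 229 CPM per kb and Plin1 at 650.5 ± 58.6. The library ranges of these 3 genes did not overlap. Plin4, Mgll, Lipe, G0s2, Adrb3 and Plin2 followed in that order from 359.7 ± 44.8 down to 124 ± 25.9 CPM per kb, and each overlapped its neighbour. Abhd5 was lowest, at 39.5 ± 9.59 CPM per kb, below every Plin2 value.

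HFCD was compared with the control diet first, to ask what long feeding on the high-fat diet changed in this machinery. In adipose tissue, 4 of the 10 genes fell and 0 rose: the receptor Adrb3, the lipase Pnpla2, its co-activator Abhd5 and the droplet coat protein Plin1. On library totals, Adrb3 and Pnpla2 fell, Mgll and Plin2 rose, and Abhd5 and Plin1 did not pass. The 8 adipocyte markers had a median of -0.75 in the same comparison, and their part was not tested. In the TMM-scaled fit the lipases Lipe and Mgll, the inhibitor G0s2 and the droplet proteins Plin4, Cidec and Plin2 did not pass. Of all 15112 genes tested, 30.0% passed in either direction, 14.2% by falling and 15.7% by rising. Of all calls 52.5% were rises, against 90.2% on library totals, where 6205 genes rose and 672 fell. The median log2 fold change was -0.45 over the 10 genes and -0.0014 over all genes, against 0.05 and 0.44 on library totals. Libraries of the 2 diets did not overlap for 4 of the 10 genes (Adrb3, Pnpla2, Plin1 and Plin2), against 39.5% of all genes.

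Adrb3 (ENSMUSG00000031489, chromosome 8, 27225776 to 27250616, minus strand of GRCm38), the receptor through which catecholamines start lipolysis in rodent fat, measured 781, 670.1 and 342 CPM in control replicates 1, 3 and 5. In HFCD replicates 1 to 4 it measured 127, 65.0, 140.3 and 89.4 CPM. The lowest control library lay well above the highest HFCD library. Means were 598 ± 228 CPM in control and 105 ± 34.4 CPM in HFCD (SD, n = 3 and n = 4). The fitted log2 difference was -2.50 (SE 0.41) with an adjusted p = 0.00176 by edgeR's quasi-likelihood test with Benjamini-Hochberg adjustment. Without control replicate 1, the library with brown fat markers, the fold change was -2.26 (adjusted p = 0.0101 in edgeR). On library totals it was -2.0002 (adjusted p = 0.00171).

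Pnpla2 (ENSMUSG00000025509, chromosome 7, 141455198 to 141460743, plus strand), which removes the first fatty acid from triglyceride, measured 3917, 3351 and 2539.7 CPM in the control libraries. In HFCD it measured 1298, 1528, 1572 and 1399 CPM. The HFCD libraries lay close together and all below control. The mean of 3269 ± 693 CPM in control and 1449 ± 125 CPM in HFCD gave a log2 fold change of -1.17 (SE 0.21; edgeR's adjusted p = 0.00242), and the fold change was -1.02 without control replicate 1 (adjusted p = 0.0143 in edgeR) and -0.69 on library totals (adjusted p = 0.0134).

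Abhd5 (ENSMUSG00000032540, chromosome 9, 122351608 to 122381524, plus strand), which binds and activates the Pnpla2 lipase, measured 281, 253 and 171 CPM in control and 172, 162, 128 and 115 CPM in HFCD. Control replicate 5 lay just under HFCD replicate 1, so the diets overlapped. The log2 fold change was -0.71 (SE 0.21, edgeR adjusted p = 0.0217). This call was the weakest of the 4. With control replicate 1 left out it was -0.55 and missed the threshold (adjusted p = 0.109), as it did without control replicate 3 (-0.65, adjusted p = 0.0717). The same held with HFCD replicate 3 left out (-0.65, adjusted p = 0.0535) and with HFCD replicate 4 left out (-0.61, adjusted p = 0.0548). On library totals the value was -0.21 (adjusted p = 0.381).

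G0s2, a small protein that inhibits the Pnpla2 lipase, measured 276, 152 and 114 CPM in control and 132, 78.0, 172 and 157 CPM in HFCD. Control replicate 1 was the highest library and the rest of the 2 diets overlapped. The log2 fold change was -0.42 (SE 0.31, edgeR adjusted p = 0.320), and it was 0.02 without control replicate 1 (adjusted p = 0.965) and 0.09 on library totals (adjusted p = 0.799).

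Lipe, which cleaves diglyceride and is phosphorylated by protein kinase A, measured 2240.0, 2047 and 1461 CPM in control. In HFCD it measured 1508, 1305, 1472 and 1249 CPM. Control replicate 5 sat among the HFCD libraries, and the other 2 control libraries lay above them. The log2 fold change was -0.47 (SE 0.19, edgeR adjusted p = 0.0770). It passed without control replicate 5 (-0.63, adjusted p = 0.0263) and in DESeq2 (-0.48, adjusted p = 0.0296), and its direction turned on library totals (0.01, adjusted p = 0.957).

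Mgll, which splits the last fatty acid from monoglyceride, measured 2004, 1777 and 1242 CPM in control and 2183, 2235, 1582 and 1431 CPM in HFCD. The diets overlapped, with a log2 fold change of 0.15 (SE 0.24, edgeR adjusted p = 0.666). On library totals Mgll passed as a rise (0.64, adjusted p = 0.0489). The 3 lipases that act in sequence had fitted values of -1.17, -0.47 and 0.15, of which the Pnpla2 value passed, and -0.69, 0.01 and 0.64 on library totals. Whether they differ from each other was not tested.

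Plin1 (ENSMUSG00000030546, chromosome 7, 79720218 to 79732903, minus strand), the coat protein that guards the adipocyte droplet and holds Abhd5 at rest, measured 2986, 3313 and 2773 CPM in control. In HFCD it measured 1629.9, 1389, 1753 and 1752 CPM. All HFCD libraries lay below all control libraries. The mean of 3024 ± 272 CPM in control and 1631 ± 171 CPM in HFCD gave a log2 fold change of -0.89 (SE 0.20; edgeR's adjusted p = 0.00684), and the fold change was also -0.89 without control replicate 1 (adjusted p = 0.0244). On library totals it was -0.44 and did not pass (adjusted p = 0.0751).

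Cidec measured 3597, 3801 and 3267 CPM in control and 2915, 3812, 3100.5 and 2723 CPM in HFCD (log2 fold change -0.18, SE 0.21, edgeR adjusted p = 0.541). HFCD replicate 2 was as high as the highest control library, and the direction turned on library totals (0.28, adjusted p = 0.305). Plin4, a perilipin abundant in white fat that coats new droplets, measured 2306, 2131 and 1796 CPM in control and 2267, 2477, 2130.1 and 2062 CPM in HFCD. The diets overlapped (log2 fold change 0.10, SE 0.23, edgeR adjusted p = 0.760).

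Plin2 (ENSMUSG00000028494, chromosome 4, 86648386 to 86670060, minus strand), the perilipin found on droplets of most cell types including macrophages, measured 422, 532 and 351 CPM in control. In HFCD it measured 669.5, 918, 659 and 764 CPM. Every HFCD library lay above every control library. The log2 fold change was 0.79 (SE 0.40) and did not pass (edgeR adjusted p = 0.151). With only these 2 diets in the model it was 0.80 and passed (adjusted p = 0.0180), as it did on library totals (1.25, adjusted p = 0.0296). Of the 8 macrophage markers, 8 rose in this comparison, with a median log2 fold change of 3.05, and their part in the Plin2 values was not tested.

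**Figure D1:**
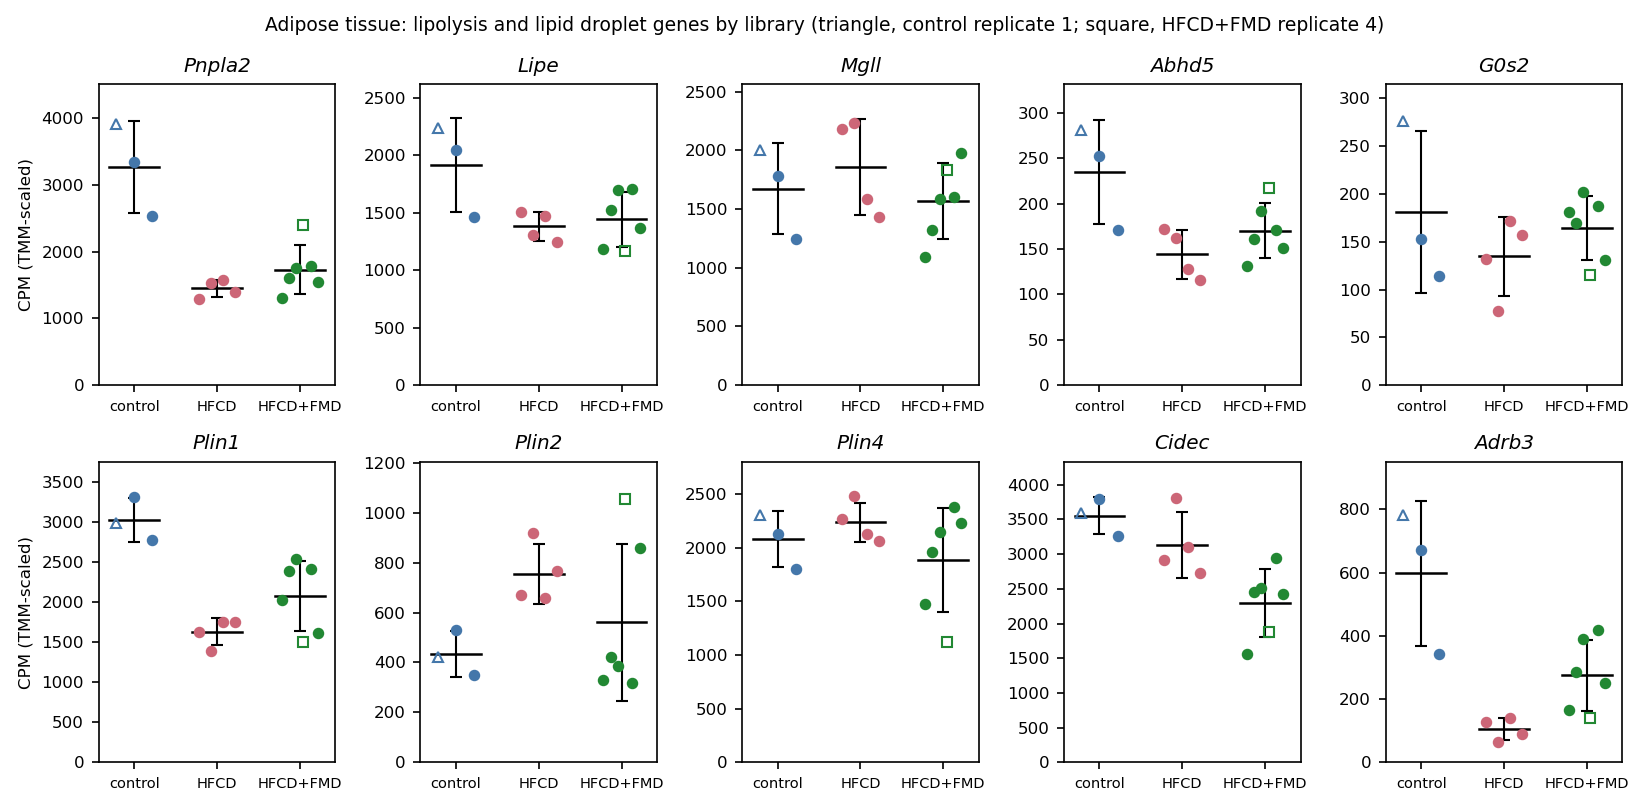
Level of the 10 genes in each adipose library in TMM-scaled CPM (y axis, linear, from 0) by diet (x axis; n = 3, 4 and 6). Horizontal lines are means and bars SD; the triangle is control replicate 1 and the square HFCD+FMD replicate 4. Adrb3, Pnpla2 and Plin1 libraries on HFCD all lie below control, and Plin2 in HFCD+FMD splits into 4 libraries at 318 to 420.1 CPM and 2 at 859 and 1054.

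The second question was whether the FMD cycles changed these genes against uninterrupted HFCD. In adipose tissue 0 of the 10 passed in HFCD+FMD against HFCD, where 0.205% of all genes passed in edgeR and 1693 genes had an unadjusted p under 0.05. Of the 10 genes, 2 had an unadjusted p under 0.05, Adrb3 and Cidec, and DESeq2 called Adrb3. Libraries of these diets did not overlap for 1 of the 10 genes, again Adrb3, against 3.34% of all genes. The median log2 fold change was 0.15 over the 10 genes and 0.011 over all genes. Rises made up 12.9% of all calls and 36% on library totals, where 0 of the 10 passed as well.

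Adrb3 in the 6 HFCD+FMD libraries ran from 141 CPM in replicate 4 through a median of 268 to 418 in replicate 5. The lowest of these was just above the highest HFCD library at 140.3 CPM, and the upper 2, replicates 3 and 5, exceeded control replicate 5. The mean of 275 ± 113 CPM lay between those of HFCD and control. The log2 fold change against HFCD was 1.38 (SE 0.35, unadjusted p = 0.00177, adjusted p = 0.174 in edgeR), and 1.39 in DESeq2 (adjusted p = 0.00561). Without HFCD+FMD replicate 4 it was 1.52 (edgeR adjusted p = 0.0658).

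Plin1 had the next clearest values above HFCD, from 1501 through a median of 2210.2 to 2535 CPM. Replicates 4 and 6 lay among the HFCD libraries and the other 4 above them (log2 fold change 0.35, SE 0.17, edgeR adjusted p = 0.468). Cidec lay the other way, from 1565 through 2438 to 2943 CPM, with 5 of the 6 libraries below the lowest HFCD library (log2 fold change -0.45, SE 0.18, edgeR adjusted p = 0.371). Neither passed.

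Plin2 split into a lower and a higher group of HFCD+FMD libraries. Replicates 1, 2, 3 and 5 measured 331, 420.1, 385 and 318 CPM, within or below the control range. Replicates 4 and 6 measured 1054 and 859 CPM, within or above the HFCD range. The summed macrophage markers of these same 2 replicates were 3945 and 4330 CPM, against 2222, 2450, 902 and 887 CPM in replicates 1, 2, 3 and 5. Their part in the Plin2 levels was not tested. The log2 fold change against HFCD was -0.42 (SE 0.33, edgeR adjusted p = 0.662).

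The other genes lay close to HFCD. Pnpla2 ran from 1304 through 1674 to 2396 CPM, its highest value being in replicate 4 (log2 fold change 0.26, SE 0.18, edgeR adjusted p = 0.612). Abhd5 ran from 131 through 166 to 217 CPM, also highest in replicate 4 (0.24, adjusted p = 0.635 in edgeR). The remaining fitted values were 0.06 for Lipe, -0.25 for Mgll, 0.28 for G0s2 and -0.25 for Plin4, and none of them passed.

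The third comparison set HFCD+FMD against the control diet, and it shares its control libraries with the first and its HFCD+FMD libraries with the second. Of the 10 genes, 3 fell and 0 rose in adipose tissue: Pnpla2, Adrb3 and Cidec. Among all genes 19.7% passed, 9.25% by falling and 10.5% by rising. On library totals none of the 10 passed in edgeR, and Lipe, Mgll, Abhd5, G0s2 and Plin4 turned direction (0.0380 to 0.41), while rises went from 53.1% to 95.1% of all calls. Libraries did not overlap for 3 of the 10 genes (Pnpla2, Plin1 and Cidec), against 21.0% of all genes. The median log2 fold change was -0.44 over the 10 genes and 0.0029 over all genes.

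Pnpla2 lay below control in all 6 HFCD+FMD libraries (mean 1731 ± 369 CPM, log2 fold change -0.92, SE 0.19, edgeR adjusted p = 0.00843). With control replicate 1 left out the value was -0.76 and missed the threshold (adjusted p = 0.0537 in edgeR), as it did on library totals (-0.41, adjusted p = 0.0748). The Adrb3 value was -1.12 (SE 0.36, edgeR adjusted p = 0.0438), and this call was lost with age in the model (-1.02, adjusted p = 0.0549), with only the compared diets (-1.12, adjusted p = 0.0698) and on library totals (-0.61, adjusted p = 0.136). It was also lost in 9 of the 13 fits without 1 library (control replicate 1 or 3, HFCD replicate 1, 3 or 4, HFCD+FMD replicate 1, 2, 4 or 6). These gave -1.13 to -0.88 with adjusted p of 0.0511 to 0.201, the highest without control replicate 1. Cidec lay below control in all 6 libraries (mean 2294 ± 494 CPM, log2 fold change -0.63, SE 0.19, edgeR adjusted p = 0.0371). Its call was lost with age in the model (adjusted p = 0.0501), with only the compared diets (adjusted p = 0.0701), on library totals (-0.16, adjusted p = 0.529) and without control replicate 1 or 3, HFCD replicate 3, or HFCD+FMD replicate 2, 4 or 6. These 6 fits gave adjusted p of 0.0511 to 0.117 in edgeR, the highest without control replicate 3 (-0.59).

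Plin1 also lay below control in all 6 libraries, with a log2 fold change of -0.54 (SE 0.18) just over the threshold (edgeR adjusted p = 0.0533). It passed in 5 of the 9 other settings, among them RLE scaling (-0.55, edgeR adjusted p = 0.0474) and DESeq2 (-0.55, adjusted p = 0.0106). It passed in 2 of the 13 fits without 1 library, and on library totals was -0.07 (edgeR adjusted p = 0.748). The values against control for HFCD and for HFCD+FMD were -0.47 and -0.41 for Lipe, -0.71 and -0.47 for Abhd5, and 0.79 and 0.37 for Plin2. Those of G0s2 (-0.42 and -0.14), Mgll (0.15 and -0.10) and Plin4 (0.10 and -0.14) were small beside their errors.

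**Figure D2:**
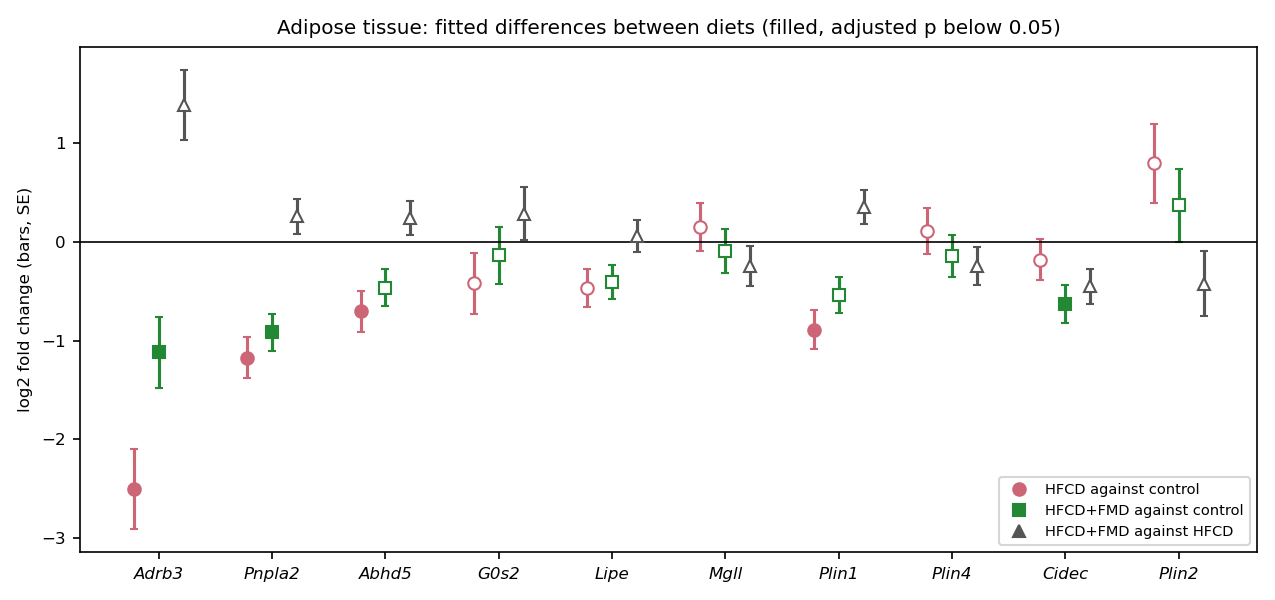
Fitted log2 fold change of each gene in adipose tissue (y axis) for the 3 comparisons of diets (x axis, genes in order of role); bars are SE and filled symbols passed at an adjusted p under 0.05. The 4 genes lower under HFCD and the 3 lower under HFCD+FMD share Adrb3 and Pnpla2, and no symbol for HFCD+FMD against HFCD is filled. On library totals Abhd5 and Plin1 under HFCD, and all 3 under HFCD+FMD, did not pass.

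Of 12 genes from the β-adrenergic receptors to protein kinase A, 2 rose and 1 fell under HFCD, a share below the 30.0% of all genes called. The median log2 fold change was -0.06, and on library totals 5 rose and 0 fell (median 0.39). On library totals 6205 of all 15112 genes rose and 672 fell. That is the background for the counts on library totals in all 5 lists under HFCD. Adrb1, the β1-adrenergic receptor, rose from 1.68 ± 0.474 to 3.67 ± 0.990 CPM (log2 fold change 1.15, edgeR adjusted p = 0.00954). Adcy3, an adenylyl cyclase that makes cAMP, rose from 24.3 ± 6.22 to 73.0 ± 13.6 CPM (1.60, edgeR adjusted p = 0.0113). Prkaca, a catalytic subunit of protein kinase A, fell by 0.42 on the log2 scale (edgeR adjusted p = 0.0376). That call did not survive leaving out control replicate 1 or 3, HFCD replicate 1, 2 or 3, or HFCD+FMD replicate 2 (highest adjusted p = 0.130 at -0.35, without control replicate 1).

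Of 15 antilipolytic receptors and brakes, 8 fell and 3 rose, where 30.0% of all genes passed. The median log2 fold change was -0.57, and on library totals 4 fell and 5 rose (median -0.09). Pde3b, the phosphodiesterase through which insulin lowers cAMP in adipocytes, fell from 589 ± 137 to 232 ± 40.8 CPM (-1.34, SE 0.18, edgeR adjusted p = 0.000687). Gnai1, an inhibitory G protein subunit, fell from 464 ± 18.8 to 236 ± 33.7 CPM (-0.98, edgeR adjusted p = 0.00312). The lactate receptor Hcar1 fell from 178 ± 68.5 to 68.1 ± 20.8 CPM (-1.38, edgeR adjusted p = 0.00627). The niacin and ketone body receptor Hcar2 fell by 1.04 on the log2 scale (edgeR adjusted p = 0.0139), and its value without control replicate 1 was -0.47 (adjusted p = 0.0822). The other 4 that fell were Insr, Irs1, Pnpla3 and Ptger3, and the 3 that rose were Hilpda, Npr3 and Pde4b.

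Triglyceride synthesis had the most genes that fell: 10 of 14, with 1 rise, where 30.0% of all genes passed. The median log2 fold change was -0.82, and on library totals 3 falls and 3 rises (median -0.32). Gpat4, which starts glycerolipid synthesis, fell from 224 ± 47.9 to 127 ± 6.00 CPM (-0.82, edgeR adjusted p = 0.00198). Mogat1, which acylates monoglyceride, fell from 19.02 ± 12.9 to 2.51 ± 0.547 CPM (-2.91, edgeR adjusted p = 0.00655). Lpin1, the phosphatidate phosphatase of fat, fell from 842 ± 154 to 432 ± 71.2 CPM (-0.96, edgeR adjusted p = 0.00760). Its relative Lpin2 rose from 15.7 ± 0.513 to 27.1 ± 4.87 CPM (0.79, edgeR adjusted p = 0.0113).

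Of 13 other lipid droplet proteins tested, 3 fell and 0 rose, a share below the 30.0% of all genes called, and on library totals 1 fell and 4 rose. Fabp4, the fatty acid carrier of adipocytes and macrophages, fell from 21453 ± 6802 to 10717 ± 1324 CPM (-1.001, edgeR adjusted p = 0.0169), with -0.72 and an adjusted p = 0.0957 without control replicate 1. Cidea, a relative of Cidec typical of brown fat, was lower by a fitted log2 value of -3.79 (edgeR adjusted p = 0.0191). That value rested on control replicate 1 at 60.3 CPM, and without it was -0.72 (adjusted p = 0.536). Cideb fell from 2.34 ± 0.884 to 0.607 ± 0.690 CPM (edgeR adjusted p = 0.0452), a low level. It missed the threshold with any of these left out: control replicate 1 or 3, HFCD replicate 1, 2 or 3, or HFCD+FMD replicate 1, 2, 3 or 6 (highest adjusted p = 0.124, without control replicate 3).

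Of 11 other hydrolases and product exporters, 1 rose and 2 fell, a share close to the 30.0% of all genes called, and on library totals 3 rose and 0 fell. Lipa, the acid lipase of lysosomes, rose from 122 ± 13.0 to 510 ± 146 CPM (2.07, SE 0.52, edgeR adjusted p = 0.0115), the opposite direction to the droplet lipase Pnpla2. Its adjusted p was 0.0504 without control replicate 1. Lipa is abundant in macrophages, whose 8 markers rose in the same libraries, and their part was not tested. The monoglyceride hydrolase Abhd6 fell by 0.78 and the carboxylesterase Ces1f by 1.38 on the log2 scale (edgeR adjusted p = 0.0147 and 0.0155). Without control replicate 1 these were -0.53 (adjusted p = 0.0910) and -1.12 (adjusted p = 0.0789).

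Between HFCD+FMD and HFCD, 0 of the 65 genes tested from these 5 lists passed in edgeR, 6 had an unadjusted p under 0.05 and 0 passed in DESeq2. Of all 15112 genes, 1693 had an unadjusted p under 0.05 in edgeR here. Of the genes with values named above for HFCD against control, Hcar2, Lpin1, Fabp4, Cideb, Abhd6 and Ces1f did not pass on library totals (adjusted p of 0.0591 to 0.214), and Prkaca turned direction (0.04).

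In HFCD+FMD against control, where 19.7% of all genes passed, 1 rose and 0 fell among the adrenergic genes, 2 and 5 among the brakes, 0 and 3 among the other droplet proteins, 1 and 6 in triglyceride synthesis, and 0 and 1 among the other hydrolases. On library totals, where 6892 of all genes rose and 354 fell, these were 6 and 0, 4 and 4, 5 and 2, 4 and 4, and 1 and 0. The adrenergic gene was Adrb1, whose call was lost in 10 of the 13 fits without 1 library (highest adjusted p = 0.160, without control replicate 3), with age and with only the compared diets. The hydrolase was Ces1f, lost without control replicate 1 or 3 or HFCD+FMD replicate 1, 2 or 4 (highest adjusted p = 0.178, without control replicate 1), in limma, with only the compared diets and on library totals. Pde3b measured 284 ± 31.0 CPM in HFCD+FMD (n = 6), below control by 1.05 on the log2 scale (edgeR adjusted p = 0.00258). Acsl1, which activates fatty acids for esterification, fell by 1.03 (adjusted p = 0.00809 in edgeR), and Pck1, which feeds glycerol synthesis in fat, changed by -1.61 (adjusted p = 0.00906). Both missed the threshold without control replicate 1, at -0.77 (adjusted p = 0.0575) and -1.19 (adjusted p = 0.0728).

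**Figure D3:**
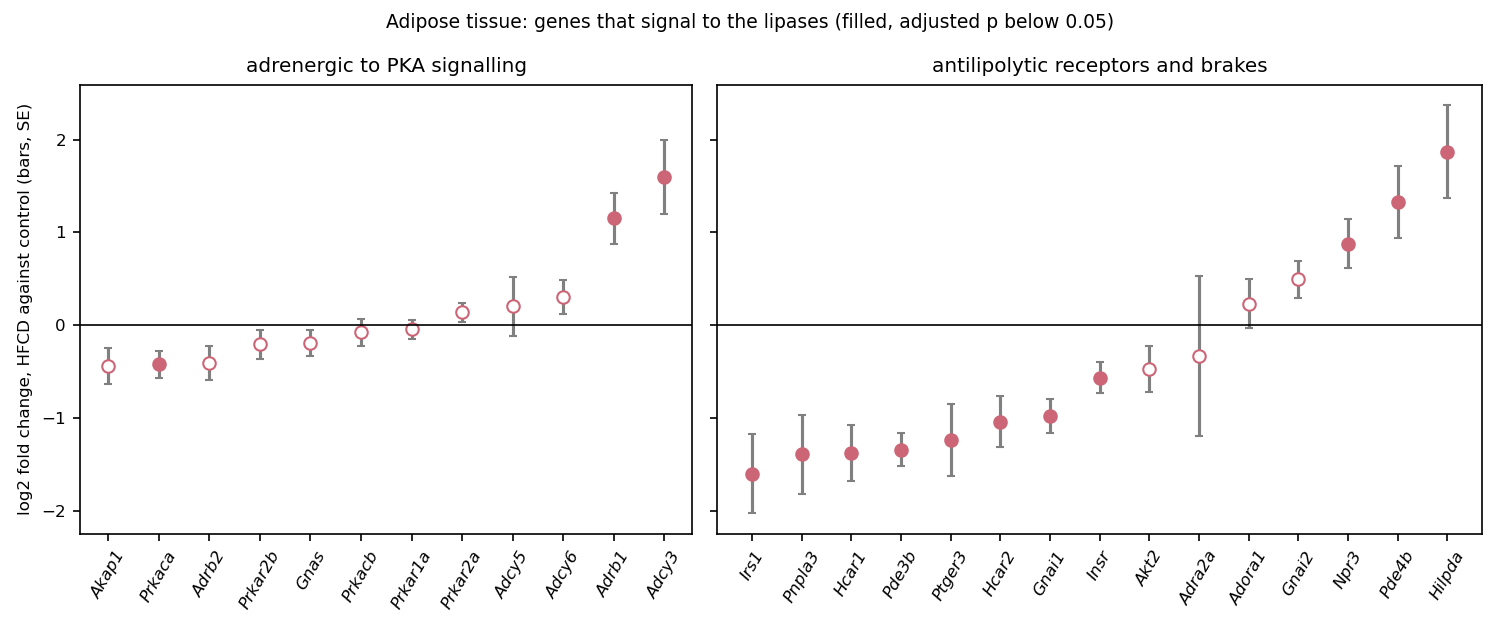
Fitted log2 fold change under HFCD against control in adipose tissue (y axis) for each of 12 genes from β-adrenergic receptors to protein kinase A (left) and 15 antilipolytic receptors and brakes (right); bars are SE and filled points passed at an adjusted p under 0.05. On the left 2 genes rose and 1 fell, and on the right 8 fell and 3 rose. On library totals, where 6205 of all genes rose and 672 fell, these were 5 and 0, and 4 and 5.

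The genes nearest to each of the 10 in adipose tissue were found by the root mean square difference of log2 CPM, each gene centred over the 13 libraries, among 12809 genes. They are named as a description, since the libraries share diets. Pdk1 and Dlat, which regulate and form the pyruvate dehydrogenase complex, followed Pnpla2 at 0.14 and 0.17 log2 units, where Pnpla2 itself varied by 0.49. Blcap and Tmem98 followed Plin1 at 0.09 and 0.11. Ctsl, a lysosomal protease, and Mfsd12, a lysosomal membrane protein, followed Plin2 at 0.20 and 0.22, where Plin2 varied by 0.58. Adrb3 varied most, by 1.05, and its nearest genes Phkg1, a subunit of phosphorylase kinase, and Oscp1 lay further off at 0.32 and 0.38. The nearest gene was Tecpr1 for Mgll (0.11), Pex19 for Abhd5 (0.14), N4bp2os for G0s2 (0.21), Sec31b for Plin4 (0.14) and Pkp2 for Cidec (0.15).

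In heart the order of levels differed. Per kilobase on the control diet, Pnpla2 was highest at 100.4 ± 32.7 CPM per kb (SD, n = 5), above every library of the other genes. Mgll, Plin4 and G0s2 followed at 34.4 ± 12.3, 25.8 ± 6.27 and 19.2 ± 7.94 CPM per kb, overlapping in that order. Plin2 (11.5 ± 1.12), Lipe (8.76 ± 2.52) and Abhd5 (7.03 ± 0.531) came next and also overlapped in turn. Cidec and Plin1, which mark white adipocytes, were at 0.716 ± 0.717 and 0.262 ± 0.229 CPM per kb. Cardiomyocyte markers (8 of 8 present) summed to 30539 CPM or more in every heart library, while the adipocyte marker Adipoq lay between 0.0722 and 9.31 CPM, and Lep and Ucp1 were not in the heart table.

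The heart libraries fell into 3 sets that share a term removed by the authors from their log2 values. Set A held control replicates 2, 3 and 5 with HFCD replicates 1 to 4, set B joined HFCD+FMD replicate 1 to control replicates 4 and 6, and HFCD+FMD replicates 2, 3 and 5 made up set C with HFCD replicate 5. What the sets stand for is not stated. HFCD replicate 5 stood apart from the other HFCD libraries: it was the only one aged 22 months and the only HFCD library in set C, and it had the highest Adipoq (9.31 CPM), Cfd (27.9 CPM) and summed macrophage markers (285 CPM) of all 14 heart libraries. Comparisons of HFCD+FMD with the other diets were tied together by this library and HFCD+FMD replicate 1, so values without HFCD replicate 5 are given for all 9 genes. Without HFCD replicate 5, set C holds HFCD+FMD libraries only, so those comparisons rest on HFCD+FMD replicate 1 alone. Such values of HFCD+FMD are given as sizes only. Without HFCD+FMD replicate 1, the diets are tied through HFCD replicate 5 alone. The same holds with only HFCD and HFCD+FMD in the model.

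Under HFCD against control in heart, 0 of the 9 genes passed, and 0.0% of the 13230 genes tested did. An unadjusted p under 0.05 in edgeR was found for 1687 genes, 4 of the 9 among them, and DESeq2 called 62 genes, none of them among the 9. Pnpla2 measured 476, 226, 277, 267 and 270.2 CPM in control replicates 2 to 6 and 286, 369, 188, 318 and 757 CPM in HFCD replicates 1 to 5. HFCD replicate 5 and control replicate 2 were high and the rest overlapped (log2 fold change 0.20, SE 0.30, edgeR adjusted p = 0.753). Without HFCD replicate 5 the value was -0.16 (adjusted p = 0.748).

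Plin2 measured 44.6, 36.2, 44.4, 38.4 and 37.9 CPM in control and 48.1, 44.3, 48.8, 39.7 and 172 CPM in HFCD. All libraries but HFCD replicate 5 lay within a narrow band (log2 fold change 0.56, SE 0.25, edgeR adjusted p = 0.385). Plin4 measured 122, 114, 179.6, 134 and 195 CPM in control and 154, 246, 146, 186 and 193 CPM in HFCD. Within set A all 4 HFCD libraries lay above the 3 control libraries, and the 2 control libraries of set B were as high as HFCD (0.47, SE 0.17, edgeR adjusted p = 0.367).

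Lipe ranged from 38.3 to 76.7 CPM in control and from 22.5 to 85.0 in HFCD, and Mgll from 126 to 279 and from 90.2 to 173. Abhd5 stayed within 38.2 to 46.6 CPM in control and 34.5 to 49.3 in HFCD, and G0s2 within 11.4 to 28.5 and 14.4 to 25.8. All 4 overlapped between the diets, with fitted values of 0.19, -0.14, 0.09 and 0.02. On library totals Pnpla2, Lipe, Abhd5 and G0s2 turned direction, to -0.11, -0.10, -0.29 and -0.33, where the median of all genes was -0.39. The unscaled mean of Plin4 was 188 CPM in control and 170.2 in HFCD, the other order, although its fitted value stayed above 0 (0.10).

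Cidec had 13, 24, 13, 137 and 35 reads in control replicates 2 to 6, and 1, 4, 7, 11 and 245 reads in HFCD replicates 1 to 5. Plin1 had 18, 18, 13, 113 and 36 reads in control and 0, 0, 7, 10 and 170 in HFCD. Both genes were high in HFCD replicate 5 and control replicate 5, the same 2 libraries with the highest Adipoq (9.31 and 3.01 CPM) and Cfd (27.9 and 5.37 CPM). The summed adipocyte markers, most of which came from Lpl, which heart muscle also expresses, were also highest in HFCD replicate 5, at 8701 CPM. Control replicate 5 was the lowest control for that sum, at 5321 CPM, and HFCD+FMD replicates 3 and 5, with few Cidec and Plin1 reads, were at 8185 and 8558 CPM. The part of adipocytes in these values was not tested. Neither passed (Cidec -2.67, Plin1 -2.88, edgeR adjusted p = 0.367 for each), and without the set term the values were 0.49 and 0.11, the other direction.

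Between HFCD+FMD and HFCD in heart, 1 of the 9 genes passed, Cidec, where 0.106% of all genes did. It had 0, 6, 1 and 0 reads in HFCD+FMD replicates 1, 2, 3 and 5, or 0.0396 ± 0.0503 CPM (SD, n = 4), against 1.84 ± 3.53 CPM in HFCD. Counts this low passed the filter only through other diets, and the HFCD mean rests on replicate 5. The fitted log2 fold change of -6.92 (SE 1.09, edgeR adjusted p = 0.0392) depends on the set term and is not a measured ratio. Without HFCD replicate 5 it was -5.28, and with no set term -5.11 (edgeR adjusted p = 0.343). The call was lost in 8 of the 14 fits without 1 library.

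Against control, Cidec was again the 1 of 9 that passed, where 0.0227% of all genes did. All 4 HFCD+FMD libraries lay below all 5 control libraries, whose mean was 1.33 ± 1.33 CPM. Here too Cidec passed the filter only through the other diets, so this separation is a description. The share of all heart genes that did not overlap was not counted. The fitted value of -9.58 (SE 1.29, edgeR adjusted p = 0.0157) depends on the set term and is not a measured ratio. It was -7.95 without HFCD replicate 5. This call was lost in 5 of the 14 fits without 1 library. Plin1 had 0, 4, 6 and 0 reads in HFCD+FMD and did not pass against HFCD (adjusted p = 0.0744 in edgeR) or control (adjusted p = 0.0987). Adipoq in these 4 libraries was 0.0875 to 0.321 CPM. The lowest HFCD library, at 0.0722 CPM, lay below them. The summed adipocyte markers averaged 6649 CPM in control, 6361 in HFCD and 7227 in HFCD+FMD. Plin1 passed against HFCD in limma on the authors' log2 values (adjusted p = 0.0205), and against control there (0.00241), in DESeq2 (0.0301) and on library totals (0.00662). The limma fits held no set factor, since the set term was already removed, so their p-values do not count its uncertainty. Without HFCD replicate 3 Plin1 passed against control (edgeR adjusted p = 0.0496). The Plin1 fits without HFCD+FMD replicate 1 rest on HFCD replicate 5, the only HFCD library of set C. That library had 170 Plin1 reads. Without HFCD replicate 5 the Plin1 values were -5.09 and -7.98, resting on HFCD+FMD replicate 1 alone.

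The abundant heart genes did not pass in edgeR in either comparison with HFCD+FMD, although some did under other settings. Pnpla2 measured 253, 219.8, 216 and 175 CPM in HFCD+FMD. The log2 fold change against HFCD was -1.17 (SE 0.36, edgeR adjusted p = 0.201), and 0.04 without HFCD replicate 5. It passed in limma (-1.16, adjusted p = 0.0155). With only the compared diets and without HFCD+FMD replicate 1 the value was -1.90. In both of these fits HFCD replicate 5 was the only HFCD library set against HFCD+FMD within set C. Against control Pnpla2 was -0.97 (edgeR adjusted p = 0.426), and passed in limma (-0.95, adjusted p = 0.0412). Without HFCD+FMD replicate 1 it was -2.05, a value tied to control through HFCD replicate 5 alone. Plin2 measured 49.2, 33.9, 45.1 and 52.3 CPM, close to control. Its value of -1.21 against HFCD (edgeR adjusted p = 0.118) became 0.08 without HFCD replicate 5. It passed in DESeq2 (adjusted p = 0.0310) and in limma (0.00550). With only the compared diets it was -1.975 and without HFCD+FMD replicate 1 -1.97, again with HFCD replicate 5 as the only HFCD library of set C. Against control Plin2 was -0.65 (edgeR adjusted p = 0.548). It was -1.79 without HFCD+FMD replicate 1, a value tied to control through HFCD replicate 5 alone. Plin4 measured 121, 133, 119 and 127 CPM, all below the lowest HFCD library at 146 CPM (-0.84, SE 0.22, edgeR adjusted p = 0.133). It passed in DESeq2 (-0.85, adjusted p = 0.0165) and in limma on the authors' log2 values (-0.83, adjusted p = 0.00289), again with no set factor in the limma fit. Lipe at 25.3 to 46.7 CPM, Mgll at 104 to 217, Abhd5 at 40.4 to 49.6 and G0s2 at 13.3 to 22.0 overlapped both other diets. Without HFCD replicate 5, the values against HFCD were -1.20 for Plin4, 0.0013 for Lipe, 0.73 for Mgll, 0.02 for Abhd5 and 0.73 for G0s2. Against control they were -0.12 for Pnpla2, 0.25 for Plin2, -0.64 for Plin4, -0.09 for Lipe, 0.40 for Mgll, 0.14 for Abhd5 and 0.52 for G0s2. All values without HFCD replicate 5 rest on HFCD+FMD replicate 1 alone, so they do not test the difference between the groups.

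Of the other pathway genes in heart, 12 adrenergic genes, 11 brakes, 14 other droplet proteins, 12 triglyceride synthesis genes and 10 other hydrolases were tested. None of these 59 passed in edgeR in any of the 3 comparisons. An unadjusted p under 0.05 in edgeR was found for 9 in HFCD against control, 10 in HFCD+FMD against HFCD and 6 in HFCD+FMD against control. Of all 13230 genes, 1687, 1454 and 1254 had one. DESeq2 called 1 of the 59 in each comparison, and limma on the authors' log2 values called 1, 7 and 6. In the last 2 comparisons limma called 1328 and 1193 of all genes.

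**Figure D4:**
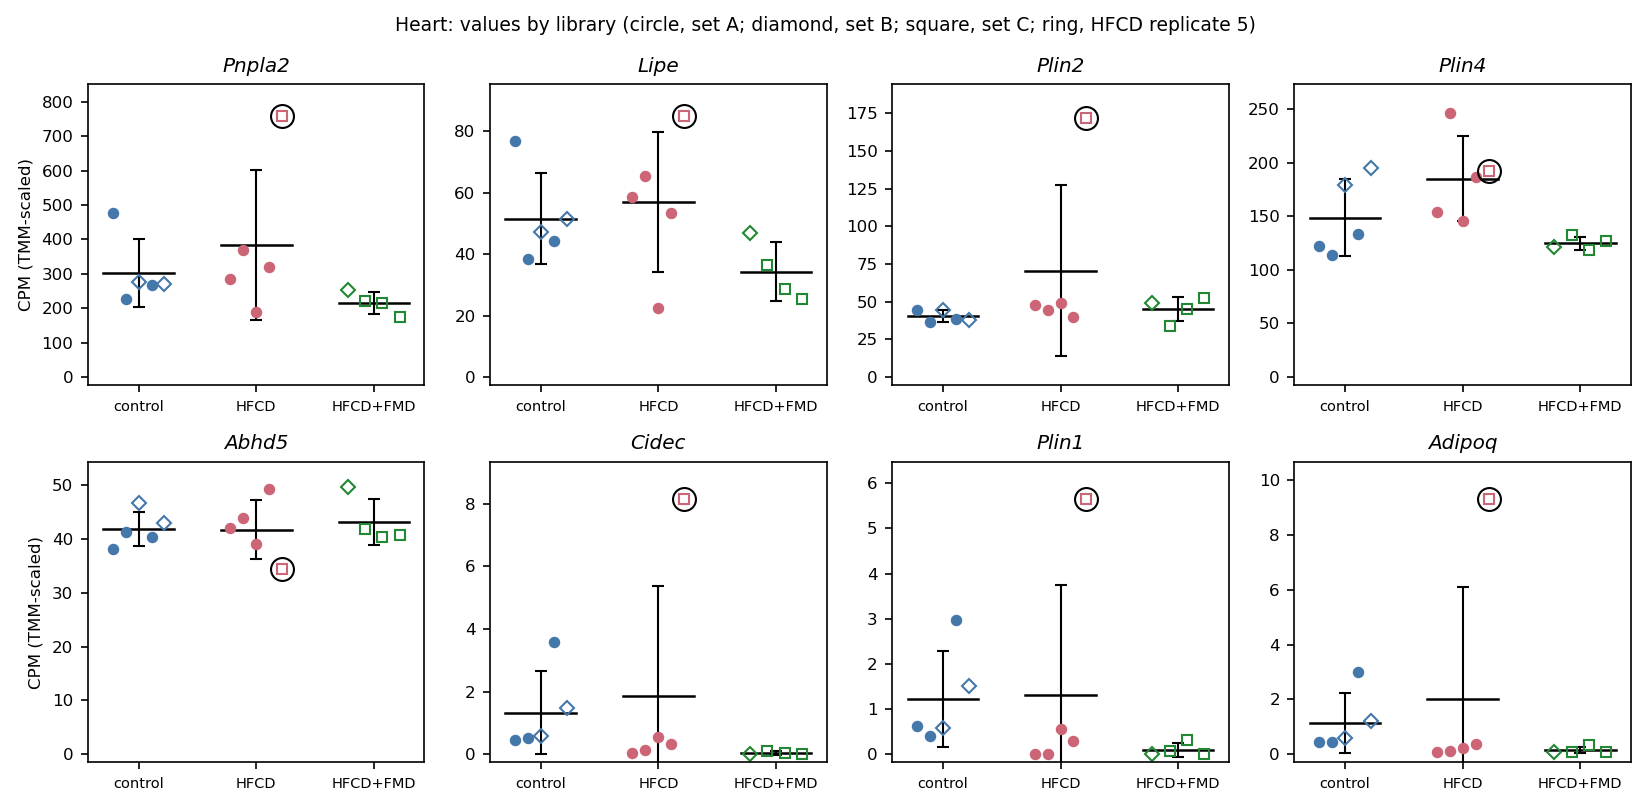
Level in each heart library in TMM-scaled CPM (y axis, linear) by diet (x axis; n = 5, 5 and 4) for 7 of the genes and the adipocyte marker Adipoq; lines are means and bars SD, which run below the axis for the rarest genes. Symbols give the library set and the ring marks HFCD replicate 5, the highest HFCD library for Pnpla2, Lipe, Plin2, Cidec, Plin1 and Adipoq.

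The response to HFCD was compared between the tissues in 1 model of all 27 libraries, which treats them as independent. Of the 9 genes, 3 differed, where 17% of 12606 genes did. Pnpla2 differed by -1.34 on the log2 scale (adipose minus heart, SE 0.40, edgeR adjusted p = 0.0238), with fitted values of -1.17 in adipose tissue and 0.20 in heart. Abhd5 differed by -0.77 (SE 0.22, edgeR adjusted p = 0.0223), with -0.71 and 0.09. Both passed without the set term too, at -1.49 (adjusted p = 0.0121) and -0.69 (adjusted p = 0.0289), where 22.0% of all genes did. In the heart fit alone, the Pnpla2 value was -0.16 without HFCD replicate 5. The test between tissues was not repeated without that library. Cidec differed by 2.52 (SE 0.78, edgeR adjusted p = 0.0304), but without the set term by -0.66 (adjusted p = 0.673). On library totals, where 37.7% of all genes differed, the Pnpla2 value was -0.57 (adjusted p = 0.334) and the Abhd5 value turned to 0.09 (adjusted p = 0.848). Those of Cidec (3.45, adjusted p = 0.00359) and Plin1 (2.95, adjusted p = 0.0148) passed there. In the TMM-scaled fit Plin1, which fell in adipose tissue, did not pass (2.04, edgeR adjusted p = 0.117), and Lipe, Mgll, G0s2, Plin2 and Plin4 did not either.

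Some of these genes share exon sequence with a gene on the opposite strand, and whether reads were counted by strand is not given in the sources used here. The shared part was 839 bases or 24.9% of the exons for Adrb3 (with Gm45470), 950 bases or 15.95% for Abhd5 (with A730085K08Rik) and 918 bases or 15.6% for Lipe (with 4732471J01Rik). It was 167 bases for Mgll and 17 for Plin4. Reads of the partners could not be told apart there.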

How the data were processed

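RNA sequencing libraries of adipose tissue and heart were grouped by the diet in the labels. Of 34 labelled libraries, 27 had a column in the tables and 7 were not analysed here. No per-sample column was left out (0). Per the submitters' processing notes, STAR 2.5.3, build mm10, R 3.5.3, edgeR and limma were used. The read counter and its annotation are not given in the sources used here. What the authors deposited was, for each tissue, 1 table of unnormalized counts of reads by gene and 1 of normalized log2 CPM. In heart, the deposited log2 values had lost 1 term per gene for each of 3 sets of libraries, which differed within a set by at most 9.8e-09 from a constant.

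Counts were analysed in R 4.3.3 with edgeR 4.0.16 (TMM scaling, filterByExpr, quasi-likelihood F-test, two-sided, Benjamini-Hochberg over all genes tested, false discovery rate 0.05), each tissue with its 3 diets in 1 model and, in heart, the set as a factor. The filter kept 15112 of 15145 adipose and 13230 of 13238 heart genes. CPM use TMM-scaled library totals, and log2 CPM for the nearest patterns add a prior count of 2. The scripts were tested on simulated data. Alternatives were RLE scaling, DESeq2 1.42.0, limma 3.58.1 on the deposited log2 values, no low-count filter, 1 CPM in 5 libraries, age as a covariate, only the compared diets, no set factor, CPM without TMM scaling, each library left out in turn, and, chosen after seeing the data, TMM without mitochondrially encoded genes and edgeR on library totals with no TMM scaling. Exonic lengths and gene coordinates came from GENCODE M21 and promoters from RefSeq, both on GRCm38. All 10 genes were named whatever their result. Up to 4 genes of each of 5 pathway lists with the smallest p among those passing were named with values, other called brakes by symbol after their values were seen, and for the 10 genes their nearest patterns among genes of at least 1 CPM, of which that of Lipe is not reported here. The genes and lists were chosen with earlier results of these data known. Figures were drawn with matplotlib 3.10.9.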

Additional observations from a re-analysis of the deposited data

Results flagged for a closer look

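In 6 of the 47 groups of 4 to 6 libraries that were checked, 1 library lay far from the rest by Dixon's criterion. Chance meets it in about 1 in 20 independent groups, and these groups share libraries, so they are not independent. All 6 were in heart. HFCD replicate 5 was far above the other HFCD libraries for Plin2 (172 CPM), Cidec (8.15 CPM) and Plin1 (5.65 CPM), the same library with the highest Adipoq. Control replicate 2 was far above the other controls for Pnpla2 (476 CPM), HFCD replicate 3 was far below the other HFCD libraries for Mgll (90.2 CPM), and HFCD+FMD replicate 1 was far above its group for Abhd5 (49.6 CPM).

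For 3 genes the change under HFCD against control differed between adipose tissue and heart by a test of the difference itself. It was lower in adipose tissue by 1.34 on the log2 scale for Pnpla2 (an adipose-minus-heart value of -1.34) and by 0.77 for Abhd5 (-0.77). For Cidec it was 2.52 higher in adipose tissue, a value that turned to -0.66 without the set factor. On library totals with no TMM scaling the values were -0.57 for Pnpla2, 0.09 for Abhd5 and 3.45 for Cidec, and Pnpla2 and Abhd5 did not pass.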

How the results depend on the processing

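No paired analysis was possible because the labels carry no replicate numbers or pairing, and the numbers used here follow accession order. All values are limited by 3 to 6 libraries a diet, and heart Cidec and Plin1 by counts near 0. In adipose tissue the count of the 10 genes called in HFCD against control was 3 to 5 of 10 in fits leaving out 1 library and 4 to 5 under the other settings, with 2348 to 4854 genes called overall without 1 library. The 3 of 10 came without control replicate 1 or 3 or HFCD replicate 3 or 4, and the 2348 genes without control replicate 1 (2991 without control replicate 3). In HFCD+FMD against HFCD DESeq2 called 1 of the 10 and 302 genes, and leaving out 1 library gave 0 of the 10 and 5 to 80 genes. In HFCD+FMD against control age as a covariate gave 1 of the 10, only the compared diets gave 1 and 1834 genes, and leaving out 1 library gave 0 to 5 and 663 to 3500 genes. With control replicate 1 or control replicate 5 left out, fits turned the sign of Mgll (-0.0237 to 0.31 in HFCD and -0.27 to 0.0575 in HFCD+FMD) and G0s2 (-0.67 to 0.0215 and -0.39 to 0.31), which never passed.

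In heart, HFCD against control had 62 genes called in DESeq2 and 51 in limma on the deposited values, and 0 in every fit without 1 library. HFCD+FMD against HFCD had 3 of the 9 and 279 genes in DESeq2, 0 and 0 under the stricter filter and also with no set factor, 2 genes with age, 5 of the 9 and 1328 genes in limma, and 2 of the 9 and 268 genes with only the compared diets. Without 1 library it had 0 to 4 of the 9 and 0 to 368 genes, the most without HFCD+FMD replicate 1. HFCD+FMD against control had 2 of the 9 and 145 genes in DESeq2, 0 and 1 under the stricter filter, 3 and 1193 in limma, 0 and 0 with only the compared diets or no set factor, and 0 to 4 and 0 to 217 without 1 library. The limma fits held no set factor, so their p-values do not count the uncertainty of the removed set term. The stricter filter removed Cidec and Plin1. These fits do not all compare the same libraries. With only HFCD and HFCD+FMD, or without HFCD+FMD replicate 1, HFCD replicate 5 is the only HFCD library set against HFCD+FMD in set C. With only HFCD+FMD and control, HFCD+FMD replicate 1 is compared with control replicates 4 and 6 in set B. Without HFCD replicate 5, HFCD+FMD rests on replicate 1 alone. What else made the counts differ was not tested.

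Under settings other than the scaling, directions turned in heart as follows, and no turned value had an adjusted p under 0.05. Some values at the other end of the ranges below did pass. In HFCD against control, only the compared diets gave Pnpla2 -0.16, Lipe -0.0899 and G0s2 -0.21, and no set factor gave Abhd5 -0.0045, Plin1 0.11 and Cidec 0.49. Without 1 library Pnpla2 ran from -0.16 to 0.57, Lipe from -0.0889 to 0.52, Mgll from -0.33 to 0.25 and G0s2 from -0.21 to 0.34. In HFCD+FMD against HFCD, age gave G0s2 0.23 and only the compared diets gave Mgll -0.27. Without 1 library Pnpla2 ran from -1.90 to 0.0410, Lipe from -1.49 to 0.0013, Mgll from -0.27 to 0.73, G0s2 from -0.50 to 0.73 and Plin2 from -1.97 to 0.0768. In HFCD+FMD against control, age gave Mgll 0.23 and G0s2 0.30, only the compared diets gave Mgll 0.40, G0s2 0.52 and Plin2 0.25, and no set factor gave G0s2 0.10 and Plin2 0.16. Without 1 library Mgll ran from -0.59 to 0.40, G0s2 from -0.69 to 0.52 and Plin2 from -1.79 to 0.25. In the test between tissues, no set factor gave Cidec -0.66 and Plin1 -1.01. RLE scaling and TMM without mitochondrially encoded genes turned no direction among the 10 genes in the 3 comparisons of either tissue.

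With library totals and no TMM scaling, in adipose tissue HFCD against control had 6877 genes called, with Lipe 0.0128, G0s2 0.0883, Cidec 0.28 and Prkaca 0.0447. HFCD+FMD against control had 0 of the 10 and 7246 genes, with Lipe 0.0852, Mgll 0.41, Abhd5 0.0380, G0s2 0.39 and Plin4 0.34. In heart, HFCD against control gave Pnpla2 -0.11, Lipe -0.10, Abhd5 -0.29 and G0s2 -0.33, HFCD+FMD against HFCD had 3 genes called and G0s2 0.17, and HFCD+FMD against control had 2 of the 9 and 6 genes. Between tissues the values were G0s2 0.43, Lipe 0.13, Abhd5 0.0913, Plin4 0.49, Plin1 2.95 and Pnpla2 -0.57.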

Other observations

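The 10 genes were also set against Adipoq, an adipocyte hormone gene, within each adipose library, a ratio chosen after the values were seen. Adipoq itself measured 3376 ± 934 CPM in control (SD, n = 3), 2363 ± 303 in HFCD (n = 4) and 2587 ± 816 in HFCD+FMD (n = 6), and its levels overlapped between diets. The log2 ratio to Adipoq was lower in every HFCD library than in any control library for Adrb3 (mean difference -1.999), Pnpla2 (-0.67) and Abhd5 (-0.21). It was higher in every HFCD library for Plin2 (1.28), Mgll (0.64) and Plin4 (0.59). The share of all genes whose ratio to Adipoq did not overlap was not counted. In CPM, 39.5% of all genes did not overlap between these 2 diets. For Lipe, G0s2, Plin1 and Cidec the ratios overlapped, so the clear separation of Plin1 in CPM was not seen in its ratio to this gene. A ratio shows unequal change of 2 genes and not which of them changed.

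The ratio of Adrb3 to Adipoq ran from -2.81 to -2.37 on the log2 scale in control, from -5.30 to -3.998 in HFCD and from -3.58 to -2.99 in HFCD+FMD, 3 ranges that did not overlap. The ratio of Cidec ran from 0.13 to 0.57 in HFCD and from -0.42 to 0.43 in HFCD+FMD.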
